A study of Homo sapiens with 12 samples.

Results

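The MYC and MAX network was examined through 9 listed genes, MYC, MAX, MNT, MXD3, MXD4, MXI1, MGA, MLX and MLXIP, of the 20052 protein-coding genes in the RefSeq gene table for GRCh38.p14. The 9 were taken by name, and an ac4C peak was counted in a gene when its midpoint lay within the gene span on the strand of the gene. Each of the 9 held a peak in some library, as did 12292 protein-coding genes in all. The peaks came from acetylated RNA immunoprecipitation sequencing (acRIP-seq), in which an antibody that recognises N4-acetylcytidine (ac4C) captures fragments of RNA for sequencing. The cells were SW620, a human colorectal cancer line. A control group carried a control shRNA (shControl, genotype given as WT), and a knockdown group carried an shRNA against NAT10 (shNAT10, genotype given as NAT10 knockdown), the acetyltransferase that places ac4C on RNA. Each group had 3 immunoprecipitated libraries, and the 6 input libraries were not analysed here. The study's methods describe stable lines made by lentiviral infection and puromycin selection, and the labels do not say which NAT10 shRNA a library carried or whether the replicates were separate cultures, so the p-values below measure only the spread between libraries, which may be technical.

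MYC is a transcription factor that binds DNA at E-box sequences as a dimer with MAX and drives genes for growth, ribosome production and metabolism. MAX also pairs with MNT, the MXD proteins, MXI1 and MGA, which compete with MYC for MAX and for the E-box and mostly repress transcription. MLX is a MAX-like partner of MLXIP (MondoA), which senses glucose-derived sugars. In the colon, MYC is a classical target of Wnt and β-catenin signalling and is expressed at a high level in most colorectal cancers. ac4C in mRNA has been linked to the stability and translation of the transcript, and a pattern of cytosines spaced a codon apart (CNNCNNCNN) has been described around ac4C sites.

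The sequences below are the first 30 bases of regions, merged from overlapping peaks of the libraries, at annotated starts of the member genes. They are shown because 5 of the 9 genes shared a peak at the 5′ end in every library, of which MAX, MNT and MXD4 are shown. MLX region 1 was listed in 1 library, MGA region 2 in 3, MXI1 region 1 in 5 and the other regions in 6. The sequences were read from the RefSeq promoter table (GRCh38.p14), 5′ to 3′ on the gene strand, and capitals mark the bases in matches to CNNCNNCNN. The MAX stretch begins 11 bases inside the region, where the table's window begins. Stretches are shown for 6 of the 9 genes. The second MXI1 region and the MGA region lie at further annotated starts of these genes, 18388 and 39188 bases into the spans. Some peaks begin inside the region limits. The MXD4 stretch, with its match, lies outside the peaks of control 2, control 3 and knockdown 1. In MXI1 region 2 the peaks of these same libraries begin within the stretch, as does the MGA peak of control 3.
MAX region 1, chr14:65102504-65102533, minus strand: gttgatccggtgctgcagtgaggaggtggt
MNT region 1, chr17:2401089-2401118, minus strand: CGGCGGCCGggggcagcgCGGCTCCTTCCC
MLX region 1, chr17:42567081-42567110, plus strand: agggggccCGCCCGCTGgcccgtttccggt
MXD4 region 1, chr4:2262265-2262294, minus strand: atcccagcccagctCTGCATCTGtcaacat
MXI1 region 1, chr10:110207605-110207634, plus strand: atacacacagactcacagcgagaccgacac
MXI1 region 2, chr10:110225993-110226022, plus strand: ggtaaacaaaccacgcgcgggctgcccgcg
MGA region 2, chr15:41660412-41660441, plus strand: gcgcgcgcgcaggctCTTCAGCTGgagcgg

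The pattern CNNCNNCNN was searched on the gene strand only, with overlapping matches allowed. It occurred in 4 of the 7 stretches (57.1%) and in 7130 of 15842 windows of the same length after annotated starts, 1 window per gene (45%). The positions are not alike, since those windows begin at the start and the MNT and MXD4 stretches lie wholly before the gene span. MNT, with cytosine at 43.3% of the bases of its stretch, had 3 matches. MAX, with cytosine at 13.3%, had none. The median share of cytosine was 36.7% in the 7 stretches and 30% in the windows of all genes. These counts describe the letters and do not locate a modified base. The E-box CACGTG, the same on both strands, occurred in a promoter window (250 bases before the start to 50 after) of 3 of the 8 member genes with such a window, MNT, MLX and MXD4, and of 1727 of 15842 genes (10.9%).

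The libraries listed between 17877 and 28752 peaks, and the longest list was that of knockdown 1. Each peak carries a score of 50 or more, and 7.61% to 13.7% of the peaks in a list share the value 3100. The score was therefore used only as a percentile, the share of the peaks of the same library with a lower score, with tied peaks at their mean rank. A peak at 3100 lay at the 96.0, 94.8 and 93.2 percentile in control 1, 2 and 3 and at the 92.7, 94.0 and 93.2 percentile in knockdown 1, 2 and 3. The highest score in each list was 3233.06. Differences between peaks at 3100 therefore reflect only the shares of peaks at 3100 and above it. Depth is unknown, since no read counts are given. Of 10 markers of colorectal epithelium, 5 (EPCAM, KRT8, CDH1, VIL1 and CDX2) had a peak in all 6 libraries and KRT18, CDX1 and KRT20 had none, while of 7 markers of other cells none had a peak in all 6 and VWF, COL1A1 and DES had peaks in some. NAT10 itself held 1, 0 and 2 peaks in control and 2, 0 and 1 in knockdown libraries, which does not measure its mRNA level.

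Peaks were listed in 8, 8 and 7 of the 9 genes in control and in 8, 8 and 8 in knockdown libraries, and no member had a peak number that separated the groups. Together they held 17, 20 and 15 peaks in control and 26, 17 and 16 in knockdown libraries, a mean of 17.3 ± 2.52 against 19.7 ± 5.51 (SD, n = 3). As a share of all peaks of the library this was 0.0932%, 0.0884% and 0.0748% in control against 0.0904%, 0.0951% and 0.0840% in knockdown libraries. The knockdown 1 library was highest by number and lay inside the control range by share, and without it the difference in number changed from 2.33 to -0.83. Peak numbers did not overlap between the groups for 0 of the 9 genes, against 1.57% of the 12292 genes with more peaks in every knockdown than in any control library and 0.651% in the other direction. With 3 against 3 libraries the smallest p of the two-sided exact permutation test is 0.1, and the Benjamini-Hochberg adjusted p over the 12292 genes was 1 for each of the 9. Across those 12292 genes, 273 reached 0.1 and 0 had an unadjusted p under 0.05, which the design cannot give.

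**Figure D1:**
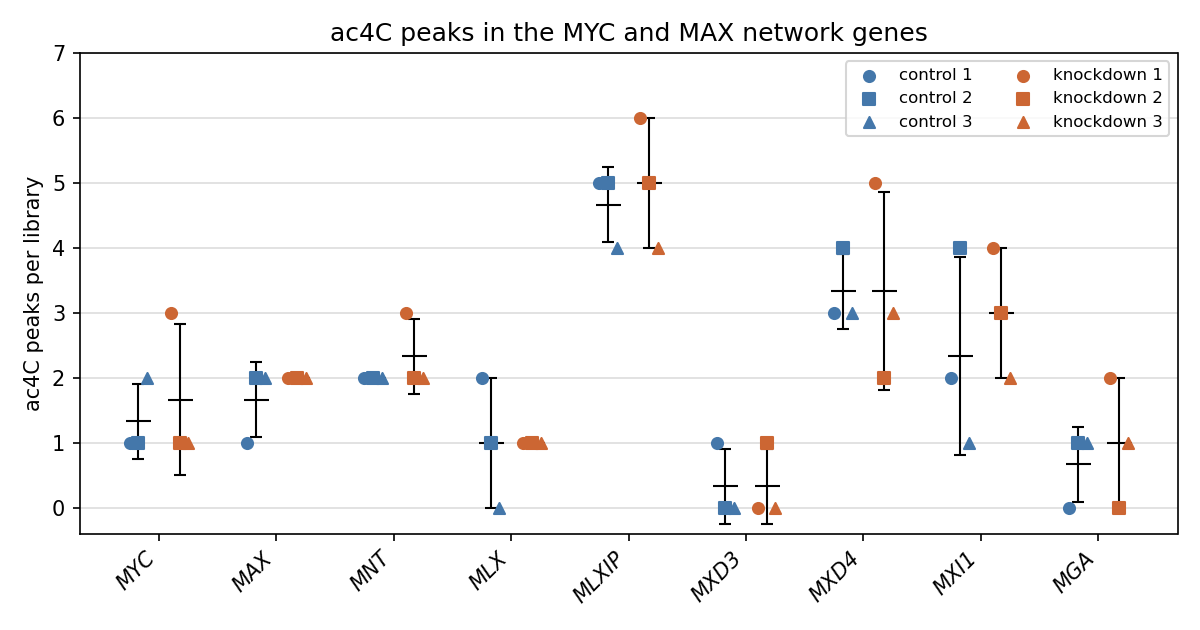
Number of ac4C peaks per library (vertical axis) in each of the 9 genes (horizontal axis). Blue marks are the 3 control and orange marks the 3 knockdown libraries, with 1 marker shape per replicate number, and horizontal ticks with bars give the mean ± SD (n = 3). The groups overlap in every gene, and knockdown 1 is the single highest library for MYC, MNT, MLXIP, MXD4 and MGA.

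MYC had a high-ranked peak at the very start of the gene in all 6 libraries. The gene spans chr8:127735434-127742951, with 1, 1 and 2 peaks in control against 3, 1 and 1 in knockdown libraries, a mean of 1.33 ± 0.577 against 1.67 ± 1.15 (SD, n = 3, two-sided exact permutation test, p = 1). The shared peak covered 1190 bases from the first base of the span in 5 libraries and 1110 bases in knockdown 1, where it began 80 bases further in. Its score percentile was 89.6, 94.8 and 93.2 in control against 92.7, 94.0 and 93.2 in knockdown libraries, with 3100 reached in every library but control 1. The groups overlapped, with a difference of 0.77 percentile points (two-sided exact permutation test, p = 0.9), or 11.1 points for the median over all MYC peaks (p = 0.4). A second region, 772 bases long and 2814 bases downstream of the start, was listed in knockdown 1 alone, at the 92.7 percentile. A further region, 1039 bases long and 4962 bases downstream, was listed in control 3 at the 31.5 percentile and in knockdown 1 at the 4.39 percentile. Peaks covered 1190, 1190 and 2229 bases of MYC in control libraries, against 2921, 1190 and 1190 bases after knockdown. Outside control 3 and knockdown 1, the remaining libraries held the start peak alone.

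Over all genes, 9 had the same peak number as MYC in all 6 libraries. The closest of them to MYC in the percentile of the best peak were PSD3, KRT86 and CDC25C, with root mean square differences of 17.2, 29.2 and 32.1 percentile points over the 6 libraries. PSD3, the nearest, lay between the 62.7 and the 92.7 percentile and so mostly below MYC.

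MAX, the shared partner of MYC and of its antagonists, carried a 5′ peak that did not vary between libraries. Its first region, chr14:65102304-65102544, was 241 bases long and began 151 bases into the gene, and it had the same limits and a score of 3100 in all 6 libraries. A second region, 24659 bases into the gene at chr14:65077168-65078036, was absent from control 1 and lay at the 74.9 and 52.9 percentile in control 2 and 3 and at the 39.0, 53.9 and 53.1 percentile in knockdown libraries. In this region the 5′ limit was shared by the 5 libraries, and the other end varied, so that the peak was 377 and 493 bases long in control and 365, 869 and 601 bases long in knockdown libraries. MAX held 1, 2 and 2 peaks in control and 2, 2 and 2 in knockdown libraries, and the groups overlapped (two-sided exact permutation test, p = 1). The percentile of its best peak differed by -1.36 points (two-sided exact permutation test, p = 0.2). This difference reflects only the shares of peaks at 3100 and above it. The median percentile over all MAX peaks, which includes the second region, differed by -13.6 points (two-sided exact permutation test, p = 0.3).

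**Figure D2:**
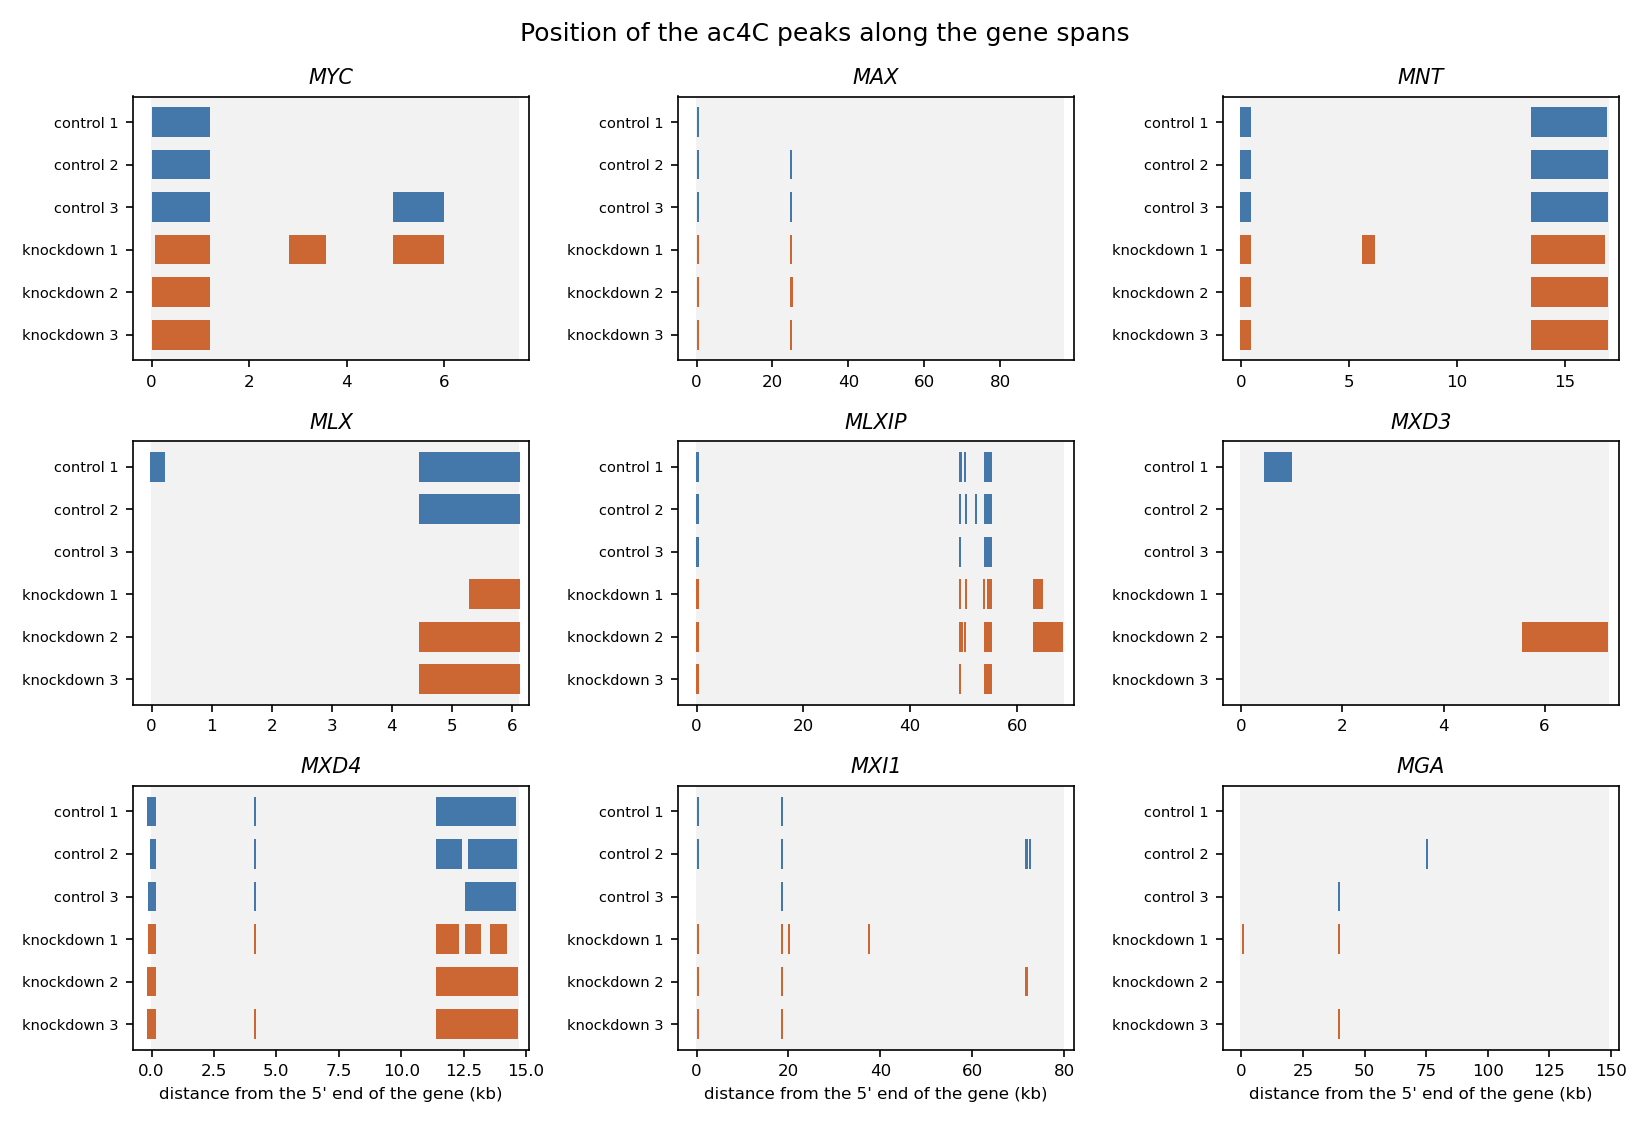
Position of each ac4C peak in the 9 genes, as distance in kb from the 5′ end of the gene on the horizontal axis, with the 6 libraries as rows. Bars are peaks drawn to scale within each panel, blue for control and orange for NAT10 knockdown, and the grey background is the gene span. MYC, MAX, MNT, MLXIP and MXD4 show a bar at the 5′ end in every library.

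Peaks at the 5′ end were shared by most of the network. Of the 6 member genes with a peak in all 6 libraries, 5 (MYC, MAX, MNT, MLXIP and MXD4) had one overlapping the first 500 bases of the span in every library, and MXI1 had one there in 5 libraries. Over all genes with a peak in all 6 libraries, 3090 of 5967 (51.8%) had a peak there in every library. Among the other members, MLX and MXD3 had a peak there in control 1 only and MGA in knockdown 1 only. Exon and intron positions of the peaks were not analysed here.

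Peaks overlapping between libraries on the same strand were merged, which gave 31 regions in the 9 genes and 41755 regions in all. Of the 31, 10 (32.3%) had a peak in all 6 libraries, against 22.0% of all regions, and 12 (38.7%) had a peak in 1 library, against 38.7% of all regions. Of these 12, 6 were listed in knockdown 1, 3 in control 2, 2 in control 1 and 1 in knockdown 2. Of the 16141 such regions in all, 7156 were listed in knockdown 1, 3722 in control 2, 1634 in control 1 and 723 in knockdown 2. A region present in all 3 libraries of one group and in none of the other was found for 0 of the 31, against 1.16% of all regions. The same call at gene level was met by 0 of the 9 genes, against 0.7% of the 12292 genes, and Fisher's exact test for presence gave p = 1 for each of the 9. Of the 10 regions present in all libraries, 0 had percentiles that did not overlap between the groups, against 6.98% of all such regions higher in knockdown and 4.05% higher in control.

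**Figure D3:**
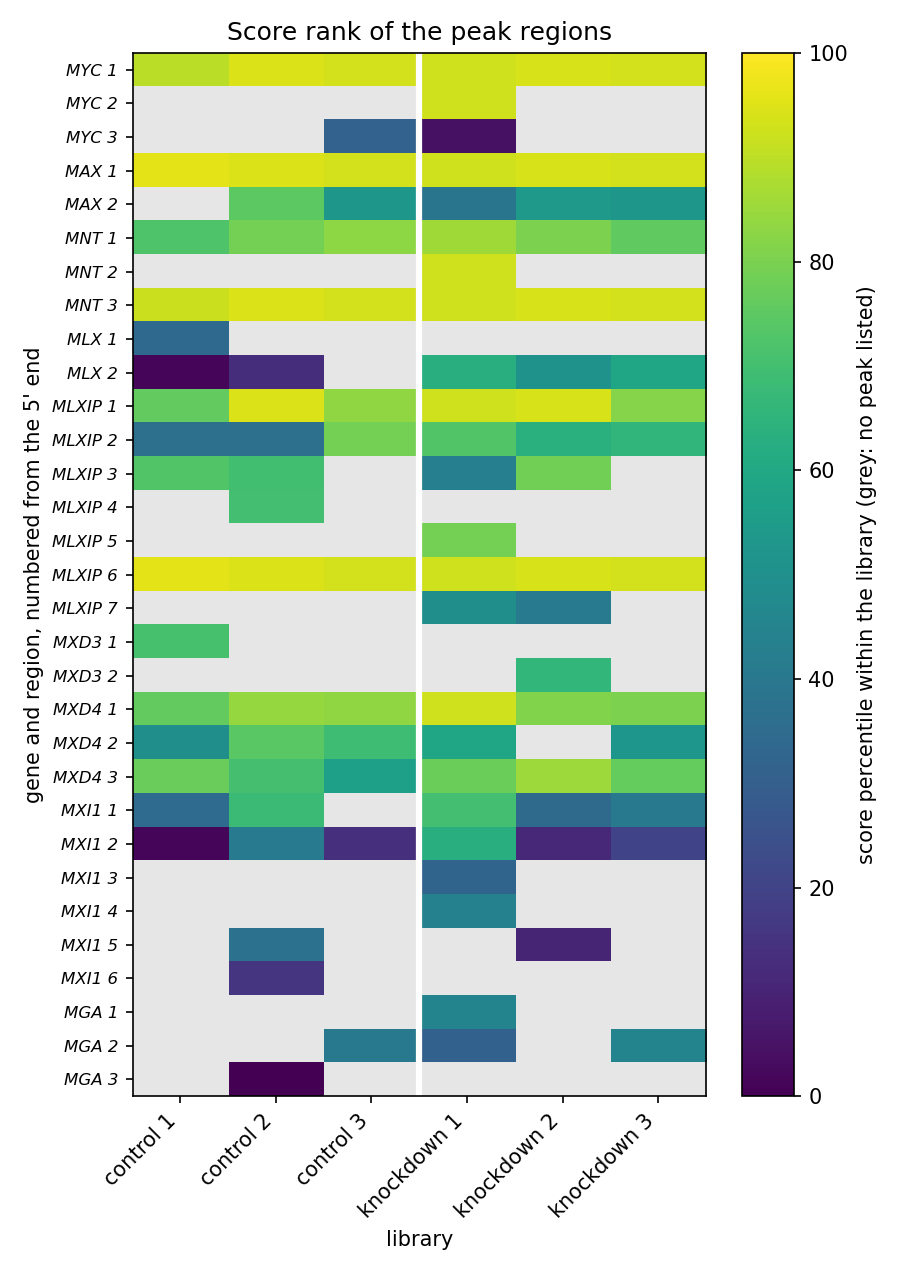
Score percentile within its library (colour, in %) of each of the 31 regions (rows, numbered from the 5′ end of each gene) in the 6 libraries (columns, control on the left of the white line and NAT10 knockdown on the right). Grey marks a region without a listed peak. The first rows of MYC and MAX, the last of MNT and the sixth of MLXIP are bright in all 6 columns, and the second MLX row is dark in control and brighter in knockdown columns.

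MNT, the MAX partner that represses MYC targets in most tissues, had peaks at both ends of the gene in all 6 libraries. The 5′ region, chr17:2400640-2401118, had identical limits throughout and lay at the 72.6, 79.1 and 83.1 percentile in control and at the 85.7, 80.1 and 75.6 percentile in knockdown libraries. The means were 78.3 ± 5.35 and 80.5 ± 5.05 (SD, n = 3), and the groups overlapped (two-sided exact permutation test, p = 0.6). The 3′ region, chr17:2384060-2387649, was 3590 bases long in 4 libraries, somewhat shorter in control 1 and knockdown 1, and reached 3100 in all but control 1, where it lay at the 91.9 percentile. Between the ends, knockdown 1 alone listed a peak of 580 bases at the 92.7 percentile. MNT thus held 2, 2 and 2 peaks in control and 3, 2 and 2 in the knockdown libraries (exact permutation test, two-sided, p = 1).

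MXD4, an MXD repressor associated with differentiation, held 3, 4 and 3 peaks in control and 5, 2 and 3 in knockdown libraries. The means were 3.33 ± 0.577 and 3.33 ± 1.53 (SD, n = 3), so that the groups did not differ in mean and knockdown libraries lay on both sides of the control range. The 5′ region, chr4:2261917-2262294, lay at the 76.1, 84.2 and 83.4 percentile in control and at the 92.7, 81.0 and 80.2 percentile in knockdown libraries. A region of only 30 bases, chr4:2257982-2258011, had the same limits wherever it was listed, which was in every library but knockdown 2. At the 3′ end, chr4:2247440-2250701 was listed as 1, 2 and 1 peaks in control and as 3, 1 and 1 peaks in knockdown libraries, and the annotation also places MIR4800 there. Its percentile was 77.1, 70.4 and 56.5 in control against 77.4, 85.5 and 76.2 in knockdown libraries, a mean of 68.0 ± 10.5 against 79.7 ± 5.04 (SD, n = 3, two-sided exact permutation test, p = 0.2). Control 1 lay above the lowest knockdown library, so the groups overlapped. The rest of the gene held 2 peaks in every library but knockdown 2, which held 1 there. The best peak of the gene lay at the 77.1, 84.2 and 83.4 percentile in control and at the 92.7, 85.5 and 80.2 percentile in knockdown libraries (difference 4.56 points, two-sided exact permutation test, p = 0.4).

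MXI1, an MXD-family repressor also called MXD2, had 6 regions, of which 1 was present in all libraries. That region, chr10:110225993-110226283, lay at the 1.23, 41.2 and 13.6 percentile in control and at the 62.8, 11.2 and 20.1 percentile in knockdown libraries. A region from the first base of the gene, chr10:110207605-110208082, was absent from control 3 and lay at the 35.1 and 68.1 percentile in control 1 and 2 and at the 70.2, 34.4 and 40.3 percentile in knockdown libraries. Both regions ranged widely within each group, and control 2 and knockdown 1 were the highest libraries of their groups in both. MXI1 held 2, 4 and 1 peaks in control and 4, 3 and 2 in knockdown libraries (mean 2.33 ± 1.53 against 3 ± 1, SD, n = 3, two-sided exact permutation test, p = 0.8). Its best peak averaged the 38.9 ± 27.4 percentile in control and the 48.3 ± 19.2 percentile in knockdown libraries (SD, n = 3, two-sided exact permutation test, p = 0.6).

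MXD3, a member of the MXD family linked to proliferating cells, had peaks in only 2 of the 6 libraries. It held 1 peak in control 1, at the 70.9 percentile and 443 bases from the 5′ end, and 1 in knockdown 2, at the 66.0 percentile and at the other end of the gene, where the span of PRELID1 overlaps on the other strand. The other libraries listed none, and the listed peaks lay in different regions. MGA, a large MAX-binding protein of a Polycomb complex (PRC1.6), has a span of 148717 bases, the longest of the 9. It held 0, 1 and 1 peaks in control and 2, 0 and 1 in knockdown libraries. The region listed most often, chr15:41660412-41660525, was present in control 3, knockdown 1 and knockdown 3, at the 40.4, 31.1 and 45.1 percentile. The MGA peak of control 2 lay elsewhere and was among the lowest of its library, at the 0.25 percentile.

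**Figure D4:**
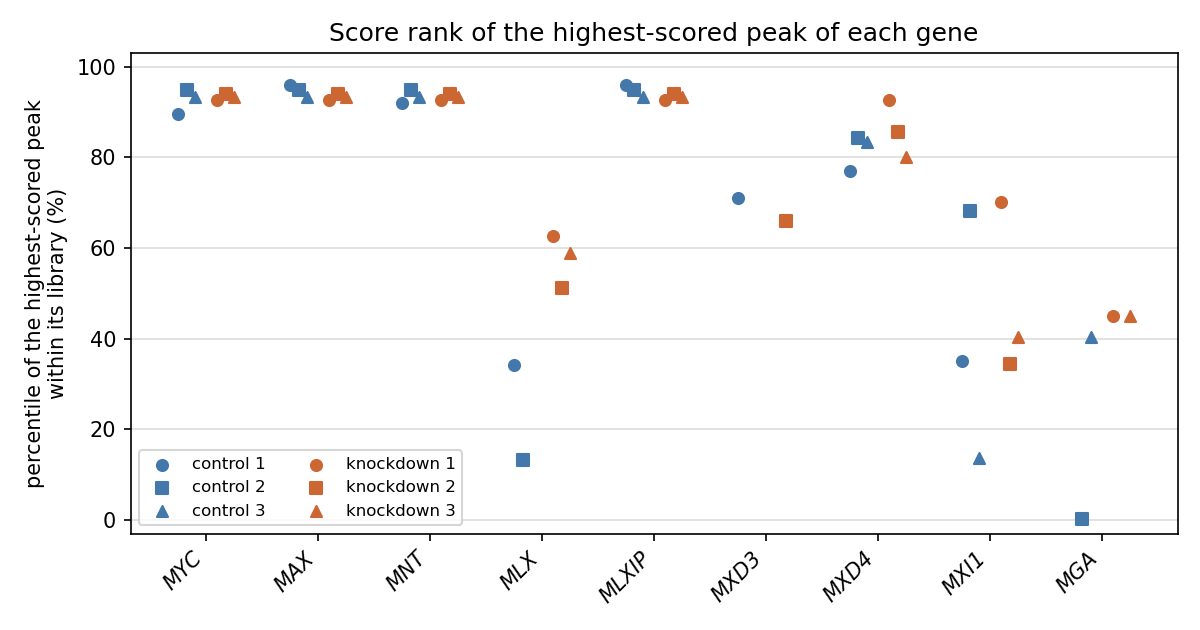
Score percentile within its library (vertical axis, in %) of the highest-scored peak of each of the 9 genes (horizontal axis). Blue marks are control and orange marks NAT10 knockdown libraries, and a library without a peak in the gene has no mark. MYC, MAX, MNT and MLXIP sit near the value of tied peaks in both groups, and the 3 knockdown marks of MLX lie above both control marks.

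With all 6 libraries, the best-peak rank separated the groups for MLX alone of the 9, when a library without a peak was placed below the others. Its 3′ region, chr17:42571547-42573239, lay at the 1.69 and 13.3 percentile in control 1 and 2, was not listed in control 3, and lay at the 62.6, 51.1 and 59.0 percentile in knockdown libraries. Control 1 also listed a peak at the 5′ end, at the 34.3 percentile, which was its best. The best MLX peak was thus at the 34.3 and 13.3 percentile and unlisted in control, and at the 62.6, 51.1 and 59.0 percentile in knockdown libraries, without overlap. The corresponding background was 3.82% of the 12292 genes higher in knockdown and 3.32% higher in control, and 1 of the 9 members met it. This way of placing unlisted libraries was added after the data were seen. With control 3 left out MLX also separated in the remaining 5 libraries, against 11.1% of 6165 genes higher in knockdown. That outcome follows from the same values and adds no support. The number of MLX peaks, 2, 1 and 0 in control against 1, 1 and 1 in knockdown libraries, did not separate the groups (two-sided exact permutation test, p = 1). When only the highest-scored 50% of peaks were kept, MLX had 0 peaks in each control library and 1 in each knockdown library, a call met by 0.429% of 8397 genes in this direction and by 0.464% in the other, and by 1 of the 9 members. This cut restates the percentiles above, since the control values lay below 50 and the knockdown values above it. It is not a second result. The region overlaps the span of PSMC3IP on the other strand, which held 0 peaks in all 6 libraries, and whether the strand was measured or assigned is not given in the sources used here.

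MLXIP, which encodes the MLX partner MondoA, held 5, 5 and 4 peaks in control and 6, 5 and 4 in knockdown libraries (mean 4.67 ± 0.577 against 5 ± 1, SD, n = 3, two-sided exact permutation test, p = 1). Its 5′ region had identical limits in all 6 libraries and lay at the 75.8, 94.8 and 83.6 percentile in control and at the 92.7, 94.0 and 82.0 percentile in knockdown libraries. Toward the 3′ part of the gene, chr12:122132525-122133987 reached 3100 in every library, as 1 peak or as 2. Between these lay chr12:122127880-122128536, also listed in all libraries, at the 36.9, 37.0 and 79.2 percentile in control and at the 73.0, 63.4 and 65.7 percentile in knockdown libraries. The knockdown values lay close together and inside the control range, with means of 51.0 ± 24.4 and 67.4 ± 5.02 (SD, n = 3, two-sided exact permutation test, p = 0.4). The last region, chr12:122141691-122147347, was listed in knockdown 1 and 2 at the 49.7 and 40.8 percentile and in no control library, and it covered 2003 and 5657 bases in those libraries.

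Best-peak percentiles could be compared for the 6 members with a peak in all libraries, and 0 of the 6 separated the groups, against 4.86% of 5967 genes higher in knockdown and 4.56% higher in control. For the bases covered by peaks, a measure added after the data were seen, 0 of the 9 separated the groups, against 3.73% of the 12292 genes higher in knockdown and 1.91% higher in control. The smallest adjusted p over all genes was 0.671 for the best-peak percentile and 1 for the peak number (exact permutation tests with Benjamini-Hochberg adjustment).

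Other genes of the network were taken from 7 hand-written lists of 89 genes in all. Peaks were found in any library for 74 (83.1%) and in every library for 54 (60.7%), against 61.3% and 29.8% of all protein-coding genes. Peak numbers separated the groups for 5 of the 74, all higher in knockdown, against the 1.57% and 0.651% of all genes given above. Best-peak percentiles separated the groups for 1 gene higher in knockdown and 2 higher in control among the 54, against 4.86% and 4.56% of all genes with a peak in all 6 libraries. The median difference in peak number, knockdown minus control, was 0.33 over the listed genes, 0.33 over the 9 members and 0 over all genes. In best-peak percentile it was -1.36, 0.38 and -0.27, in the same order. The value of -1.36 equals that of MAX, whose best peak had the tied rank in every library. It therefore reflects the share of tied peaks. Each of the 5 genes had p = 0.1 by the exact permutation test and an adjusted p of 1 over all genes. Groups that do not overlap always give 0.1, the smallest p possible here, so the test cannot decide whether these genes differ.

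MYCL, a MYC paralogue, was among the 4 other network factors. It held 1, 1 and 1 peaks in control and 3, 2 and 2 in knockdown libraries, and its best peak lay at the 0.905, 9.0 and 21.3 percentile in control and at the 80.3, 59.4 and 49.2 percentile in knockdown libraries. Both measures separated the groups, as peak number did in this direction for 1.57% of the 12292 genes. Best-peak percentile did so for 4.86% of the 5967 genes with a peak in all 6 libraries. A region beginning 35 bases into the gene was listed in 0 control and 3 knockdown libraries. Such a call, in either direction, was met by 1.16% of all regions. MXD1 and MLXIPL, a repressor of the MXD family and the glucose-sensing partner of MLX in liver, had peaks in all 6 libraries with overlapping numbers and percentiles. MYCN, the neural MYC paralogue, had no peak in any library.

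Of 15 MYC cofactors in chromatin and transcription, 14 had a peak, and BPTF, a nucleosome remodelling subunit, held 2, 2 and 2 peaks in control and 3, 3 and 3 in knockdown libraries. The additional BPTF region lay at the 6.91, 50.9 and 26.2 percentile in knockdown libraries and was in no control library, against the same 1.16% of all regions. EP400, a chromatin remodelling ATPase, had its best peak at the 99.8, 94.8 and 99.8 percentile in control and at the 92.7, 94.0 and 93.2 percentile in knockdown libraries, lower without overlap (exact permutation test, p = 0.1), with control 2 and all knockdown libraries at the tied rank. CCNT1, a cyclin of the elongation factor P-TEFb, had no peak. Of 14 genes acting on MYC protein stability, 12 had a peak, and 0 separated the groups by peak number. HUWE1, a ubiquitin ligase for MYC, had its best peak at the 96.0, 94.8 and 93.2 percentile in control and at the 92.7, 86.1 and 93.2 percentile in knockdown libraries (exact permutation test, p = 0.1), of which every value but that of knockdown 2 is the tied rank. SKP2 and STUB1, which act in the ubiquitination of MYC, had no peak.

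Of 13 genes of the SIN3 and NCOR corepressors, through which the MXD proteins and MNT repress, 12 had a peak. SIN3B, a scaffold that binds the MXD proteins, held 4, 5 and 5 peaks in control and 7, 9 and 9 in knockdown libraries. Of its 12 regions, 6 were listed in knockdown libraries only, between the 0.23 and the 33.1 percentile. Of these, region 4 was listed in 3 libraries, region 7 in 2 and regions 5, 6, 8 and 9 in 1 each. A peak in 1 library only was found for 38.7% of all regions. NCOR1, a nuclear receptor corepressor, held 4, 4 and 4 peaks in control and 5, 6 and 5 in knockdown libraries. RBBP4, a histone-binding subunit, had no peak. Of 9 MGA partners in PRC1.6, 8 had a peak, and RYBP, a Polycomb subunit, held 0 peaks in the 3 control libraries and 1 in each knockdown library, at the 62.2, 48.4 and 38.7 percentile. RYBP alone of the listed genes met this call, against 0.7% of the 12292 genes in either direction. The RYBP peak of 126 bases began 2 bases into the gene, and CBX3, a heterochromatin protein of the same complex, had no peak. With the highest-scored 50% of peaks, the difference was 1.33 peaks for MYCL, 2.67 for NCOR1, 0.67 for SIN3B and 0.33 for BPTF and RYBP, and the exact permutation p was 0.4, 0.3, 0.7, 1 and 1. With the 17877 highest-scored peaks of each library, the p stayed at 0.1 for MYCL (difference 2), NCOR1 (2.33) and RYBP (1) and was 0.4 for BPTF and SIN3B (exact permutation tests).

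**Figure D5:**
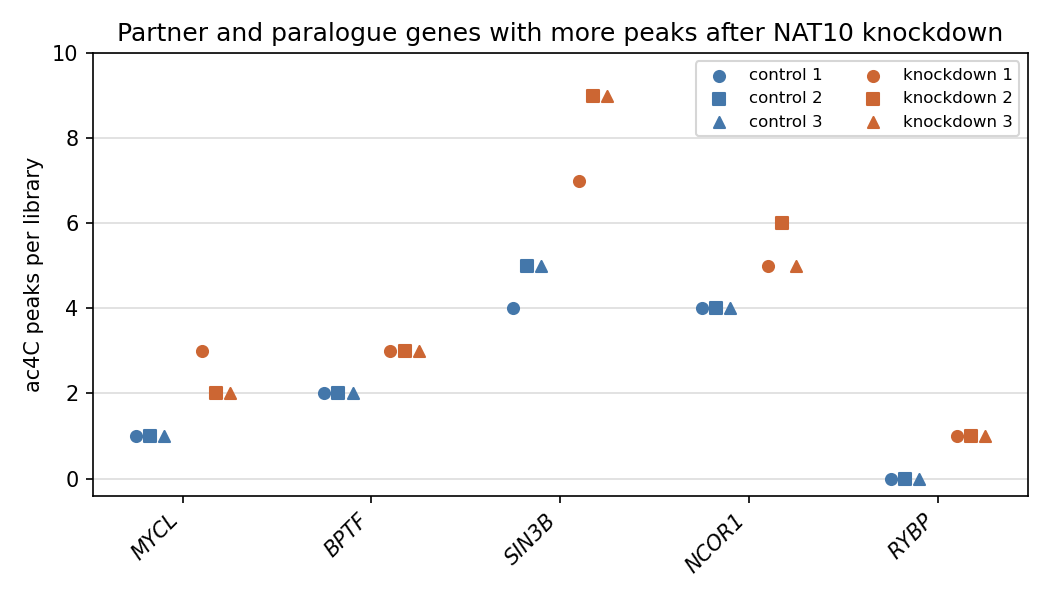
Number of ac4C peaks per library (vertical axis) in the 5 listed network genes (horizontal axis) whose peak numbers did not overlap between control (blue) and NAT10 knockdown libraries (orange), with 1 marker shape per replicate number. The genes were chosen for this separation among 89 listed genes, so the gap between the colours is a description.

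Of 30 textbook MYC target genes, 22 had a peak in any library and 14 in all 6, and 0 separated the groups by peak number or by best-peak percentile. ODC1, NPM1, ENO1, CDK4 and CCND2, which act in polyamine synthesis, nucleolar function, glycolysis and the cell cycle, were among the 8 without a peak. The 22 with a peak had a median difference in peak number of 0.33, and the 14 had a median difference in percentile of -1.36. The latter is the value of genes at the tied rank in every library, such as NCL, FBL, BOP1 and PTMA. It reflects the share of tied peaks and does not show lower ranks after knockdown. Of 4 glucose-induced targets of MondoA and MLX, 3 had a peak and 1 had a peak in all 6 libraries, with 0 separating the groups. TXNIP, the classical target that restrains glucose uptake, had no peak, and ARRDC4, its relative, held 1 peak in knockdown 1 alone.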

How the data were processed

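The authors sequenced anti-ac4C immunoprecipitates of fragmented total RNA and deposited 1 peak list per library, not pooled and limited to mRNA, in which each peak has a position, a strand and a score. The deposited score has no stated scale and was used only as a rank, and the other columns used, the deposited start and end positions, are on GRCh38 according to the submitters' processing notes. Peak names are those of MACS. The aligner, the caller's settings and the annotation are not given in the sources used here. Because no counts are given, the depth is unknown and the 3 libraries per group set the precision.

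The members and the gene lists were chosen with earlier results of these data known. Strand came from the RefSeq promoter table or, for 4210 of 20052 genes including MYC, from most of the peaks in the span. Overlapping peaks on a strand were merged into regions. Peak numbers and best-peak percentiles were compared by two-sided exact permutation tests over libraries, adjusted by the Benjamini-Hochberg method over all genes tested, and presence by Fisher's exact test. Alternatives were peaks on either strand, any overlap of at least 1 base, peaks in 1 gene only, the highest 50% of scores, the 17877 highest-scored peaks of each library, 50% coverage of a region, a difference of 2 libraries, other percentile rules, the replicate block and each library left out, with covered bases and unlisted libraries placed lowest added after the data were seen. Genes named beyond the 9 were those of the lists that separated the groups or had no peak, at most 5 per list, and the 3 nearest to MYC. MXD1, MLXIPL, ARRDC4, NCL, FBL, BOP1 and PTMA were named outside this rule after their values were seen. Some sequences and listed genes are not reported here. The code was tested on simulated data. Python 3.11.15 was used with numpy 2.4.6, pandas 2.3.3, scipy 1.17.1 and matplotlib 3.10.9.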

Additional observations from a re-analysis of the deposited data

Results flagged for a closer look

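On the strand opposite to MAX, knockdown 1 listed 2 peaks within the MAX span, which the counts above leave out, and no other library listed one. They were 20 and 115 bases long and lay at the 5.40 and 25.2 percentile, at chr14:65040790-65040809 and chr14:65054575-65054689, where FNTB and the read-through gene CHURC1-FNTB are annotated on that strand. FNTB held 1, 0 and 0 peaks in control and 2, 0 and 0 in knockdown libraries.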

How the results depend on the processing

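The 314 alternative values include counts and shares without a test. Of those with a p by an exact test, 0 had a p under 0.05, which groups of 3 or fewer libraries cannot give. For peak number and for presence, the members that separated the groups went from 0 to 1 (MLX) with the highest 50% of scores. For best-peak percentile they went from 0 to 1 with unlisted libraries placed lowest, and ranged from 0 to 3 with 1 library left out, with 3 without control 3 (MLX higher in knockdown, MAX and MLXIP higher in control), 2 without knockdown 2 (MAX and MLXIP higher in control) and 1 without knockdown 3 (MXD4 higher in knockdown). Of all genes, 11.1% were higher in knockdown and 22.3% higher in control without control 3, 17.9% higher in control without knockdown 2 and 8.91% higher in knockdown without knockdown 3. The MAX and MLXIP values are all the rank of peaks tied at 3100. Changed regions went from 0 to 1 with a difference of 2 libraries (MLXIP region 7), to 1 with the highest 50% of scores and to 1 with the equal number of peaks (both MLX), and ranged from 0 to 1 with 1 library left out (1 without knockdown 3). The share of all genes with peak numbers higher in every knockdown library, 1.57%, ranged from 2.43% to 4.37% with 1 library left out, since fewer libraries overlap less often.

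Without knockdown 1 the difference in peak number became -0.33 for MYC, -0.17 for MLXIP and -0.17 for MGA, and with 1 library left out it ranged from -0.33 to 0.67, from -0.17 to 0.83 and from -0.17 to 0.83. The 9 genes together differed by -0.83 peaks without knockdown 1, in a range up to 4.17. In covered bases MGA differed by -18. In percentile points, the median over peaks gave 2.28 for MNT, 3.79 for MLXIP, 11.1 for MYC (0.77 for the best peak) and -13.6 for MAX (-1.36 for the best peak), and MYC differed by -1.81 with ties at the lowest rank and by -0.047 with the equal number of peaks. With 1 library left out, MYC ranged from -0.72 (without control 1) to 1.91, MNT from -0.72 to 0.74 and MXI1 from -3.26 (without control 3) to 24.0, with -1.54 without knockdown 1. The cause of these reversals was not tested. Same-numbered libraries did not deviate together (correlations of -0.18, -0.12 and -0.0037 over 12292 genes), and with the replicate block the 9 genes together differed by 2.33 peaks, as without it, and the smallest p a gene can have is 0.25.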
